A study of Rattus norvegicus with 6 samples.

Results

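Genes of the contractile and cytoplasmic actin systems were followed across the onset of the heartbeat in the rat embryo: the actins Actc1, Acta1, Actb and Actg1, the actinins Actn2 and Actn3, and the tropomyosins Tpm1, Tpm2 and Tpm3. They were taken by gene name and were measured by 13 of the 30367 probes on the array that are not controls. Of these genes 4 had 2 probes and 5 had 1. Heart primordia, the tissue from which the heart tube forms, were excised from Wistar rat embryos (spelled "Wister rat" in the sample labels) on embryonic day 10. A pre-heartbeat group and a post-heartbeat group each held 3 biological replicates with 1 array per replicate. The paper assigned primordia to the groups by form and somite stage. A flat centre stood for the time before the first contraction and a raised centre for the time after it. The paper lists as a limitation that this division rests only on earlier ex vivo work. The labels give no treatment and no engineered allele for either group, and how many embryos contributed to a replicate of the array experiment, or whether litters were shared, is not given in the sources used here. P-values therefore measure the spread between these samples.

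Muscle contracts when myosin motors pull on thin filaments. A thin filament is a polymer of actin, with tropomyosin lying along it and, in striated muscle, the troponin complex that lets calcium switch the filament on. At the Z-disc, alpha-actinin crosslinks thin filaments of neighbouring sarcomeres. Actc1 encodes the main actin of the adult heart and Acta1 that of skeletal muscle, which the embryonic heart also uses, while Actb and Actg1 encode the cytoplasmic actins found in every cell. Many genes for muscle actins carry CArG boxes, the DNA element bound by serum response factor (SRF).

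All values are log2 signals less the log2 of the 75th percentile on that array, listed as replicates 1, 2 and 3, and differences are post-heartbeat less pre-heartbeat. A level of 0 thus equals the 75th percentile of the array, and levels of different probes are not compared because probes differ in their response. All 13 probes stood well above background on each of the 6 arrays, 0 of their spots were saturated, and 0 had been marked as outliers. The arrays came from 2 slides, each scanned separately. On slide 1 were replicate 1 of the pre-heartbeat group with replicates 1 and 2 of the post-heartbeat group, and the remaining arrays were on slide 2. Slides were the main division of the whole data, with 60.3% of the variance on the first principal component against 16.6% on the second, which divided the groups, and the fit blocked by slide is therefore given beside the fit without it. Because a slide and its scan hold the same arrays, their parts cannot be told apart.

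At the brightest probe of each gene, Acta1, Actn2 and Tpm1 had higher signals on every post-heartbeat array than on any pre-heartbeat array, and Actn3 had lower ones. A second Tpm1 probe was lower on every post-heartbeat array (log2 difference -0.24), and the mean of both Tpm1 probes differed by 0.25 where the brighter one alone differed by 0.74. The differences were 2.22 fold for Acta1, 1.79 fold for Actn2 and 1.67 fold for Tpm1, and 1.86 fold in the other direction for Actn3. The brightest probes of Actc1, Actb, Actg1, Tpm2 and Tpm3 overlapped between the groups, whereas the second Tpm3 probe was lower on every post-heartbeat array. Limma's test with Benjamini-Hochberg adjustment over all tested probes called 0 of the 9 genes at 0.05 in either direction, against 0.158% of 12685 genes called higher and 0.0315% called lower. In the fit blocked by slide it called 3 genes higher, namely Acta1, Actn2 and Tpm1, and 0 lower, against 1.48% and 0.560% of all genes. At an unadjusted p under 0.05 in the fit without the block, 3 genes were higher and 1 was lower, against 4.70% and 3.35% of all genes. The groups were apart in the higher direction for 3 of the 9 genes, against 6.31% of all genes, and in the lower direction for 1, against 6.91%. In pieces of whole tissue, fewer cells of a type and less RNA per cell cannot be told apart.

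**Figure D1:**
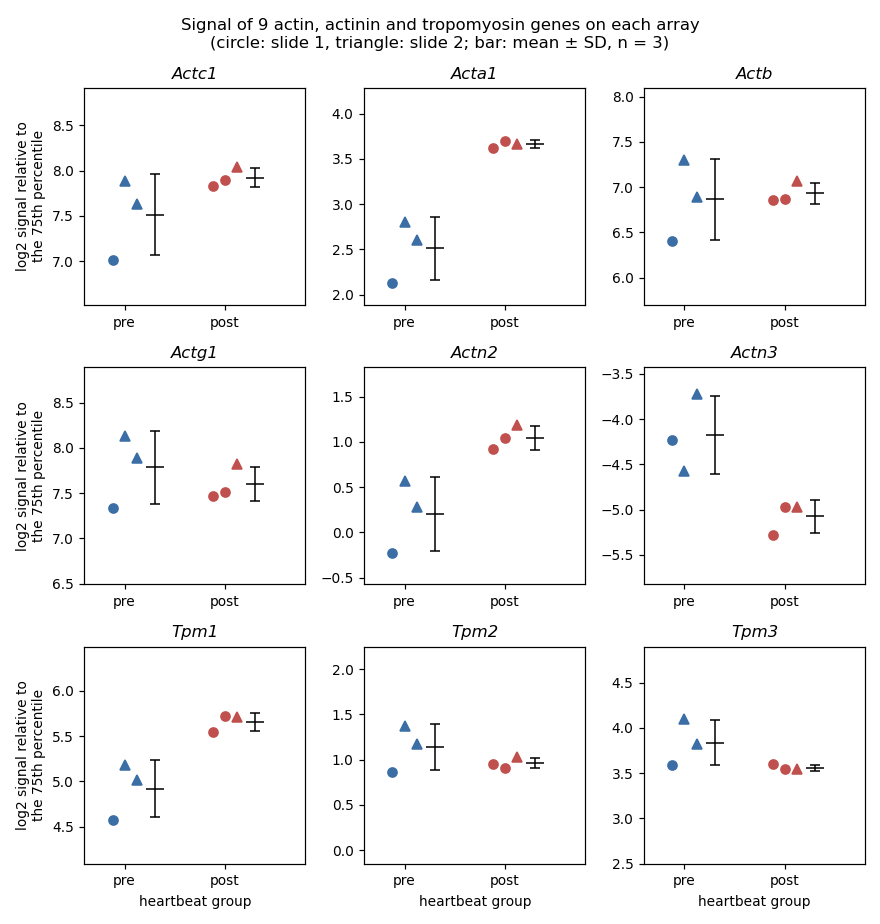
Log2 signal relative to its 75th percentile on that array (vertical axis, each panel spanning the same range of log2 units around its own mean) for the brightest probe of the 9 genes in the pre-heartbeat and post-heartbeat groups; circles are arrays of slide 1, triangles arrays of slide 2, and the bar is the mean ± SD of 3 arrays. The groups do not overlap for Acta1, Actn2, Actn3 and Tpm1, and pre-heartbeat replicate 1 lies lowest of its group for 8 of the genes.

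Among the actins, the skeletal muscle form Acta1 differed most between the groups. Its log2 signal was 2.13, 2.80 and 2.60 in the pre-heartbeat group and 3.62, 3.70 and 3.67 in the post-heartbeat group, so every post-heartbeat array lay above every pre-heartbeat array. The mean went from 2.51 ± 0.35 to 3.66 ± 0.04 (SD, n = 3 arrays each), a log2 difference of 1.15 (SE 0.20), which did not pass limma's test without the block (adjusted p = 0.107) and passed in the fit blocked by slide (1.25, adjusted p = 0.0179). Within slide 1 the log2 difference was 1.53 and within slide 2 it was 0.96. The exact permutation test gave p = 0.1 (two-sided), the smallest that 3 arrays against 3 can give.

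The cardiac form Actc1 had a log2 signal of 7.02, 7.89 and 7.63 in the pre-heartbeat group and 7.83, 7.89 and 8.04 in the post-heartbeat group. Pre-heartbeat replicates 1 and 3 lay below every post-heartbeat array, and replicate 2 reached into the range of the post-heartbeat group. The log2 difference was 0.41 (SE 0.24), or 1.33 fold, with an adjusted p of 0.866 in limma, and 0.56 (adjusted p = 0.234) in the fit blocked by slide. It was 0.84 within slide 1 and 0.28 within slide 2, and 0.16 without pre-heartbeat replicate 1. The probe of Actc1 lies at chr3:99901091-99901150 (rn4, minus strand).

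The cytoplasmic actins did not pass the test in either fit. Actb, measured by 10 spots of 1 probe at chr12:12049595-12049654 (rn4, plus strand), had a log2 signal of 6.41, 7.30 and 6.89 in the pre-heartbeat group and 6.85, 6.87 and 7.07 in the post-heartbeat group. The post-heartbeat arrays lay within the range of the pre-heartbeat arrays, and the log2 difference was 0.06 (SE 0.24, limma's adjusted p = 0.945) and 0.21 (adjusted p = 0.918) in the fit blocked by slide. It was 0.46 within slide 1 and -0.03 within slide 2, and -0.16 without pre-heartbeat replicate 1. Spots of the same probe on an array differed with an SD between 0.04 and 0.08, far below the SD of 0.44 between pre-heartbeat arrays. Actg1 had a log2 signal of 7.34, 8.13 and 7.88 against 7.47, 7.51 and 7.82 at its brighter probe (chr10:109773514-109773573, rn4, minus strand). At its other probe (chr10:109775044-109775103) the values were 5.46, 5.96 and 5.72 against 5.68, 5.65 and 5.67. Both probes overlapped between the groups, with log2 differences of -0.18 (SE 0.23, adjusted p = 0.866) and -0.04 (SE 0.16, adjusted p = 0.949) in limma. In the fit blocked by slide these were -0.02 and 0.02.

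Because ratios of probes on the same array do not depend on how arrays are scaled, the actins were also compared within each array. The log2 ratio of Acta1 to Actc1 was -4.89, -5.09 and -5.03 in the pre-heartbeat group and -4.21, -4.19 and -4.37 in the post-heartbeat group, so it shifted toward Acta1 by 0.74, or 1.67 fold. The ratio of Actc1 to Actb shifted by 0.34, that of Acta1 to Actb by 1.09 and that of Actb to Actg1 by 0.25, again on the log2 scale. For Actc1, whose own signal overlapped between the groups, the log2 ratio to Actb did not overlap, at 0.61, 0.59 and 0.73 in the pre-heartbeat group and 0.98, 1.02 and 0.97 in the post-heartbeat group. In the fit blocked by slide the shifts were 0.69, 0.35, 1.03 and 0.23. In all, 8 pairs of the 9 genes were compared, and the groups were apart in 8 of 8, against 15.5% of all pairs of tested genes. That share is not a like comparison, because the 8 were picked from a larger number of possible pairs. Several hold Acta1, Actn2, Actn3 or Tpm1, whose own signals were apart between the groups. Of the 13 probes 12 also had the same order of pre-heartbeat arrays, an order held by 38.0% of all genes. The count is therefore not read as a trait of these genes. The 8 pairs share genes and are not independent. Acta1 to Actb is fixed by Acta1 to Actc1 and Actc1 to Actb, and Tpm1 to Tpm3 by Tpm1 to Tpm2 and Tpm2 to Tpm3. The exact permutation test reached its smallest p, 0.1, in each pair, and 0.1 after adjustment over the 8 pairs, so that the pairs with small shifts cannot be told from those with large shifts by p.

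**Figure D2:**
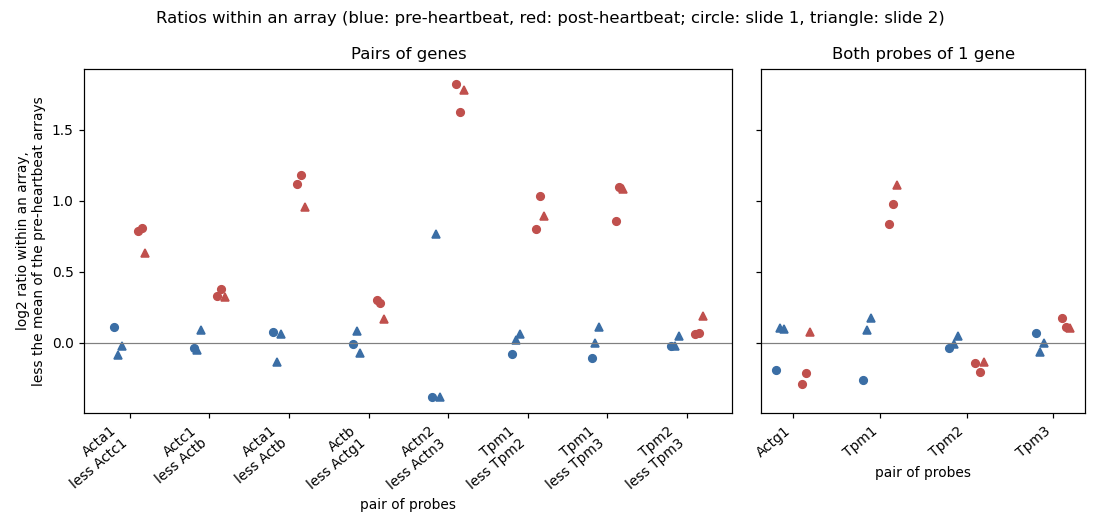
Log2 ratio of a pair of probes within an array, less the mean of that ratio in the pre-heartbeat arrays (vertical axis), for 8 pairs of genes (left) and for both probes of 4 genes (right); blue is pre-heartbeat, red is post-heartbeat, circles are slide 1 and triangles slide 2. The post-heartbeat arrays lie above the pre-heartbeat arrays in all 8 gene pairs, a direction that depends on which gene is named first. Mean shifts go from 0.10 for Tpm2 less Tpm3 to 1.74 for Actn2 less Actn3, and the pre-heartbeat arrays are spread most in the latter.

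Promoters of the genes, from 250 bases before to 50 bases after the RefSeq transcript start on the GRCr8 assembly, were searched on both strands for the CArG box, the MEF2 motif and TATAAA. RefSeq entries were at hand for 8 of the 9 genes (10 promoters), all but Actb. A CArG box was found in 3 genes, Actc1, Acta1 and Actg1, each an actin, and in 1.64% of 33469 promoters of the same length. TATAAA was found in Acta1, at bases -29 to -24 from the start and so not overlapping the box, and in 14.2% of all promoters. The MEF2 motif was found in none of the 10 promoters and in 3.29% of all. The 250 bases before the start of Acta1, which differed between the groups, and of Actg1, which overlapped, are given so that the contexts of the box can be compared, with a 30-base stretch around the box of Actc1. The box is in capitals.

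Acta1, GRCr8 chr19:68784195-68784444, minus strand: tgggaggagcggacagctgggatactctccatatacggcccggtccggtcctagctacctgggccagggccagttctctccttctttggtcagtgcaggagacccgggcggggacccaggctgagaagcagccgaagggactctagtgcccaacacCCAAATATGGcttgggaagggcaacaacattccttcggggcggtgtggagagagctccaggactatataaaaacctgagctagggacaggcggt

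Actg1, GRCr8 chr10:106120952-106121201, minus strand: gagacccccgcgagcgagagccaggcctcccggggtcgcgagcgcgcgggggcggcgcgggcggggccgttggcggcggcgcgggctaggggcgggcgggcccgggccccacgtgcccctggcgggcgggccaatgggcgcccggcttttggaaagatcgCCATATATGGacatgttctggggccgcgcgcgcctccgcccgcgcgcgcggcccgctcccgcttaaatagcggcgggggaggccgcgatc

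Actc1, bases -8 to +22 from the start, minus strand of chromosome 3: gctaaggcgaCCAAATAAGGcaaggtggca

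The box lay at bases -94 to -85 in Acta1 and -90 to -81 in Actg1, and at bases 3 to 12 after the annotated start in Actc1. A gene whose signal was higher after the heartbeat began and genes whose signals overlapped thus all held the box in this window. These matches are descriptions of letters, and binding was not measured.

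Of the actinins, Actn2 was higher and Actn3 lower on every post-heartbeat array. Actn2, the alpha-actinin of cardiac Z-discs, had a log2 signal of -0.23, 0.57 and 0.28 in the pre-heartbeat group and 0.92, 1.04 and 1.19 in the post-heartbeat group. Each post-heartbeat array was above each pre-heartbeat array, and the mean went from 0.20 ± 0.41 to 1.05 ± 0.13 (SD, n = 3 arrays each). The log2 difference of 0.84 (SE 0.22) had an adjusted p of 0.305 in limma, and that of 0.99 in the fit blocked by slide had an adjusted p of 0.0324. Within slide 1 it was 1.21 and within slide 2 it was 0.76. The probe of Actn2 lies at chr17:68763896-68763955 (rn4, plus strand).

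Actn3, the alpha-actinin of fast skeletal muscle fibres, had a log2 signal of -4.23, -4.58 and -3.72 in the pre-heartbeat group and -5.28, -4.97 and -4.97 in the post-heartbeat group. All post-heartbeat arrays were below all pre-heartbeat arrays, with a log2 difference of -0.90 (SE 0.24, adjusted p = 0.306 in limma) and of -0.86 (adjusted p = 0.168) in the fit blocked by slide. The difference was -0.89 within slide 1 and -0.82 within slide 2. Its probe (chr1:207475570-207475629, rn4, minus strand) was dim, with intensities between 29.5 and 124, and the difference was -0.43 when the background was corrected by the normexp method. Relative to Actn3, Actn2 stood at log2 ratios of 4.0, 5.15 and 4.0 in the pre-heartbeat group and 6.20, 6.01 and 6.16 in the post-heartbeat group, a shift of 1.74 (SE 0.39), or 3.34 fold. Pre-heartbeat replicate 2 lay above the other pre-heartbeat arrays in this ratio and below every post-heartbeat array.

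The tropomyosins divided by gene and, for Tpm1, by probe. At its brighter probe Tpm1, the main tropomyosin gene of the heart, had a log2 signal of 4.57, 5.18 and 5.02 in the pre-heartbeat group and 5.54, 5.73 and 5.71 in the post-heartbeat group. The groups were apart, with a log2 difference of 0.74 (SE 0.19) and an adjusted p of 0.292 in limma, and of 0.84 and an adjusted p of 0.0486 in the fit blocked by slide. Within slide 1 it was 1.07 and within slide 2 it was 0.61. This probe lies at chr8:71339998-71340057 (rn4, minus strand) and is shown because the call for Tpm1 rests on it.

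Tpm1 probe A_64_P021591: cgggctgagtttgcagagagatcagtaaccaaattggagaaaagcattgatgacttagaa

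The other Tpm1 probe, A_44_P134213 at chr8:71331669-71331728 and so nearer to the 3′ end of the gene, had a log2 signal of 2.32, 2.58 and 2.33 in the pre-heartbeat group and 2.20, 2.24 and 2.08 in the post-heartbeat group. Here the post-heartbeat arrays lay below all pre-heartbeat arrays, with a log2 difference of -0.24 (SE 0.14, adjusted p = 0.866 in limma), and the mean of both probes differed by 0.25. Within an array the log2 ratio of the brighter to the dimmer probe was 2.25, 2.60 and 2.69 in the pre-heartbeat group and 3.34, 3.49 and 3.62 in the post-heartbeat group, a shift of 0.97 (SE 0.16), or 1.96 fold, and of 1.07 in the fit blocked by slide. This comparison of probes was chosen after the values were seen. Over the 4 genes with 2 probes the exact permutation p was 0.1 for Tpm1, 0.133 after adjustment. The shift between probes was -0.16 in Tpm2, 0.13 in Tpm3 and -0.14 in Actg1, and only in Actg1 did the groups overlap. How often the groups are apart over all probe pairs of 1 gene on the array was not computed. The count is therefore not read as a trait of these genes. Tropomyosin genes make several transcripts through alternative starts, exons and ends. Of the 4 transcripts that the array annotation lists for each Tpm1 probe, 0 were listed for both. The same held for the probes of Tpm2 and of Tpm3, whereas those of Actg1 shared 3. The lists may be partial, and which transcripts each probe reads was not tested.

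Tpm2, a tropomyosin of skeletal and smooth muscle, did not pass the test at either probe. Its brighter probe had a log2 signal of 0.86, 1.37 and 1.17 against 0.96, 0.91 and 1.02 (difference -0.17, SE 0.17, limma's adjusted p = 0.866). Its other probe had values of -2.37, -1.90 and -2.15 against -2.18, -2.16 and -2.11 (difference -0.01, SE 0.16, adjusted p = 0.990). The fit blocked by slide gave -0.09 and 0.06. The brighter probe of 60 bases spans 601 bases of the genome (chr5:59997963-59998563, rn4, minus strand), so it crosses a gap, and the other probe lies inside that span at chr5:59998176-59998235. The pair is shown because the probes lie close together in 1 gene and neither passed. Their lists of annotated transcripts had 0 in common, and whether they read the same transcripts was not tested.

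Tpm2 probe A_44_P1042783: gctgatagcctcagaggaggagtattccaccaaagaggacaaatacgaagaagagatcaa

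Tpm2 probe A_64_P144482: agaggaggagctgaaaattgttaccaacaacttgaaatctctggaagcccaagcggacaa

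Tpm3, a tropomyosin of slow muscle and of the cytoskeleton, had a log2 signal of 3.59, 4.09 and 3.83 in the pre-heartbeat group and 3.60, 3.54 and 3.54 in the post-heartbeat group (chr2:182324609-182324668, rn4, plus strand). At a second probe (chr2:182322814-182322873) the values were -1.26, -0.62 and -0.96 against -1.36, -1.35 and -1.35. The first probe overlapped and the second was lower in all post-heartbeat arrays, with log2 differences of -0.28 (SE 0.17, adjusted p = 0.866) and -0.40 (SE 0.19, adjusted p = 0.786) in limma, and of -0.22 and -0.32 in the fit blocked by slide. Relative to Tpm2 and Tpm3 on the same arrays, the brighter probe of Tpm1 shifted by 0.91 and 1.01 on the log2 scale, and Tpm2 relative to Tpm3 by 0.10. In the fit blocked by slide these shifts were 0.93, 1.06 and 0.13.

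**Figure D3:**
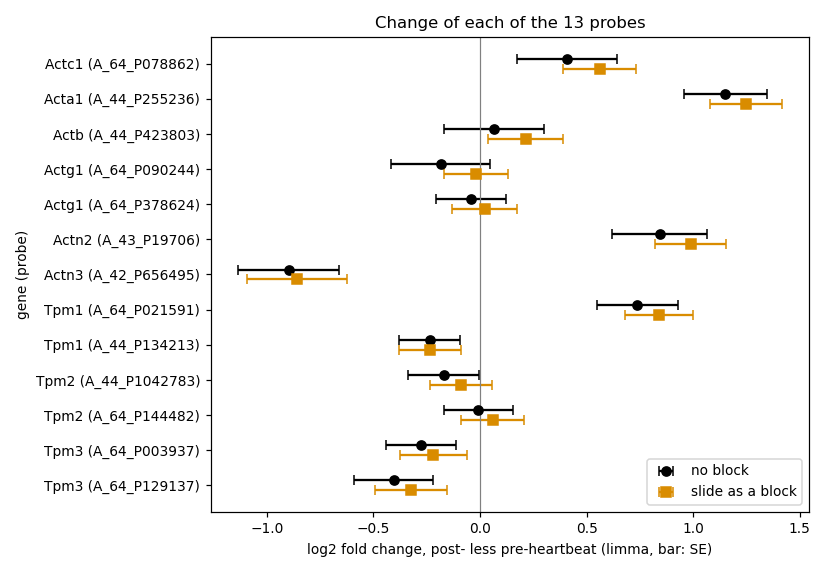
Log2 fold change of each of the 13 probes, post-heartbeat less pre-heartbeat, from limma without a block (black circles) and in the fit blocked by slide (orange squares); bars are the SE. Acta1, Actn2 and the brighter Tpm1 probe lie to the right, from 0.74 to 1.15 without the block, Actn3 lies at -0.90, and the SE bars of the remaining probes reach closer to 0.

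The pre-heartbeat arrays were the more variable ones for these genes. The SD was larger in the pre-heartbeat than in the post-heartbeat group for 13 of 13 probes, against 61.6% of 12684 genes with a value on every array. Replicate 1 was lowest, replicate 3 intermediate and replicate 2 highest for 12 of the 13 probes, Actn3 being the exception, against 38.0% of genes. When arrays were left out singly from the fit blocked by slide, the log2 difference was between 0.96 and 1.53 for Acta1 (adjusted p between 0.0131 and 0.244), between 0.76 and 1.21 for Actn2 (0.0191 to 0.408) and between 0.61 and 1.07 for Tpm1 (0.0358 to 0.493). In that fit 0 genes were called higher without pre-heartbeat replicate 1, without post-heartbeat replicate 1 or without post-heartbeat replicate 3. Of these, pre-heartbeat replicate 1 and post-heartbeat replicate 3 are the only arrays of their group on their slide, so the fit without either compares the groups on 1 slide.

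The genes whose signals followed these most closely over the 6 arrays were found among all genes with a tested probe, as a description. Nearest to Acta1 were Lrrc10 (Pearson r = 0.997), a protein of heart muscle, Prg2 (0.997) and the lactate dehydrogenase subunit Ldhb (0.996). Nearest to Actn2 were the small heat shock protein Hspb3 (0.999), the Z-disc protein Csrp3 (0.997) and Dcaf7 (0.996). Nearest to Actc1 were Tmem9b (0.995), the tetraspanin Cd9 (0.992) and the sphingomyelin synthase Sgms1 (0.990), and nearest to Actn3 were Cyba (0.981), RGD1307288 (0.955) and LOC686980 (0.954). With 6 points that share slides and scaling, and 12685 genes to choose from, high values are found for many genes.

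Of 5 further actin, actinin and tropomyosin genes, 1 passed in the fit blocked by slide, where 1.48% of all genes were called higher. The smooth muscle actin Acta2, which early heart muscle also uses, had a log2 signal of 0.89, 1.14 and 0.95 in the pre-heartbeat group and 2.19, 2.29 and 1.70 in the post-heartbeat group, with the groups apart. Its log2 difference was 1.07 (SE 0.19, limma's adjusted p = 0.121), and 1.0 (adjusted p = 0.0428) in the fit blocked by slide. The enteric smooth muscle actin Actg2 (-0.10), the non-muscle actinins Actn1 (0.28) and Actn4 (0.18) and the tropomyosin Tpm4 (-0.01) overlapped between the groups.

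Genes for proteins that bind the thin filament were taken as a list, of which 14 of 18 were tested. Their median log2 difference was 0.54, against -0.02 over all genes tested and 0.06 over the 9 genes. Of the 14, 10 were higher, against 5885 of 12684 genes. The median was 0.68 in the fit blocked by slide, and it went down to 0.28 without pre-heartbeat replicate 1 and up to 0.76 without pre-heartbeat replicate 2. The troponin I of adult heart, Tnni3, was the 1 gene that passed limma's test without the block, with a log2 signal of -0.61, -0.38 and -0.26 in the pre-heartbeat group and 0.91, 1.12 and 0.89 in the post-heartbeat group (difference 1.39, SE 0.16, adjusted p = 0.0423). With any single array left out, 0 genes of this or the other lists passed without the block. In the fit blocked by slide, where 1.48% of all genes were called higher, 5 of the 14 passed, all higher. These were Tnni3 (1.41, adjusted p = 0.00994), Lmod2, which elongates thin filaments (1.52, adjusted p = 0.00994), the slow skeletal troponin T Tnnt1 (1.10, adjusted p = 0.0195), the pointed-end cap Tmod1 (1.07, adjusted p = 0.0310) and the nebulin relative Nebl (0.85, adjusted p = 0.0324). Tmod4, Lmod3, Neb and Nrap were on the array but not tested, being above background in too few arrays.

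Genes for partners of actinin at the Z-disc had a median log2 difference of 0.49 over the 9 of 16 tested. Of these 7 were higher, against 5885 of 12684 genes. The median was 0.23 with the normexp background correction and between 0.35 and 0.58 with an array left out. Without the block 0 passed limma's test, with 5 higher at an unadjusted p under 0.05, against 4.70% of all genes. In the fit blocked by slide, where 1.48% of all genes were called higher, 3 passed, all higher. These were the actin crosslinking protein Palld (1.12, adjusted p = 0.0195), Csrp3 (0.95, adjusted p = 0.0324) and the actinin-binding Pdlim3 (0.72, adjusted p = 0.0440).

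Genes that turn over and fold actin had medians near that of all genes. Over all genes, 5885 of 12684 were higher, and 1.48% were called higher in the fit blocked by slide. Over 28 tested genes of actin turnover and nucleation, which include cofilin, profilin, the Arp2/3 complex and formins, the median log2 difference was -0.04, with 12 higher, and the cyclase-associated protein Cap2 was the 1 gene to pass in the fit blocked by slide (0.83, adjusted p = 0.0492). Over 13 tested genes of actin folding, the CCT chaperonin and prefoldin, the median was -0.08, with 2 higher and 0 passing in either fit. The list of SRF and its cofactors also held Tead1 and Yap1, and its other tested genes were Srf, Myocd and Mrtfa. Of these 5 genes, 5 were higher, against 5885 of 12684 genes, with a median of 0.30, the value of Yap1. In the fit blocked by slide the median was 0.11, the value of Tead1, and 0 genes passed in either fit. The median without the block was between 0.10 and 0.57 with an array left out. It was lowest without pre-heartbeat replicate 2 and highest without pre-heartbeat replicate 1. Srf itself had a log2 difference of 0.44 (SE 0.25, limma's adjusted p = 0.866) and its heart and smooth muscle cofactor Myocd one of 0.22 (SE 0.22, adjusted p = 0.866).

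**Figure D4:**
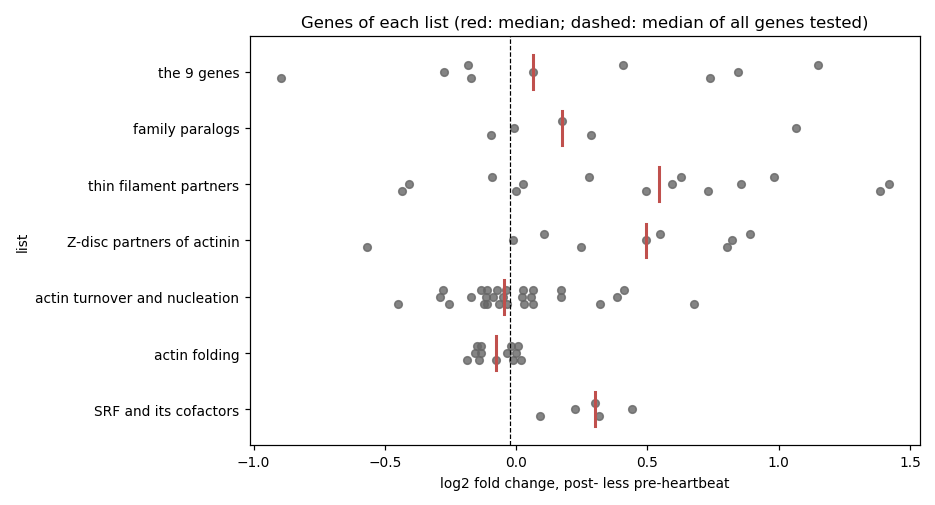
Log2 fold change, post-heartbeat less pre-heartbeat, of each tested gene (points) in the 9 genes and in 6 lists of related genes, with the median of each list (red line) and of all genes tested (dashed line at -0.02). Points are offset vertically only to separate them. The medians of the thin filament and Z-disc partners lie at 0.54 and 0.49, and those of actin turnover and actin folding at -0.04 and -0.08.

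Markers of the tissue and of other cell types are set beside these results. All 10 cardiac markers were well above background on every array, and their mean log2 signal was between 0.99 and 1.23 in the pre-heartbeat group against 1.42 to 1.60 after heartbeat initiation. Of the 10, 9 were higher, against 5885 of 12684 genes. The groups were apart in the higher direction for 3, namely Tbx5, Myh6 and Myh7, against 6.31% of all genes. Myh6 and Myh7 passed in the fit blocked by slide, against 1.48% of all genes, and 0 passed without the block. The groups overlapped for Nkx2-5 (0.67), Gata4 (0.62), Tnnt2 (0.28), Hand2 (0.26), Hand1 (0.22), Mef2c (0.04) and Ryr2 (-0.03). The mean of 5 smooth muscle markers, which include Acta2, went from between -0.47 and -0.29 to between 0.37 and 0.62. All 5 were higher, against 5885 of 12684 genes. In the fit blocked by slide 4 passed, against 1.48% of all genes called higher, and 0 passed without the block. The mean of the 2 skeletal muscle markers tested, Myog and Myf5, was between -3.71 and -3.35 against between -3.59 and -3.24, and Myod1 and Myf6 were not tested. The neural marker Otx2 fell, with a log2 difference of -1.56 (SE 0.14, limma's adjusted p = 0.0199). Sox2, the other neural marker tested, overlapped between the groups (-0.21, SE 0.42, limma's adjusted p = 0.897). The mean of the 2 went from between 0.59 and 1.41 to between -0.05 and 0.39. Endothelial markers had a median log2 difference of -0.20 without the block (1 of 5 higher) and 0.06 in the fit blocked by slide. Among them Kdr was lower on every post-heartbeat array (-0.55), and Tie1, the 1 that was higher, overlapped (0.50). The medians without and with the block were 0.24 and 0.43 for erythroid markers (2 of 4 higher), of which Epor passed when blocked (1.18, limma's adjusted p = 0.0397). They were -0.19 and -0.48 for endoderm and yolk sac markers (2 of 8 higher), and 0.39 and 0.31 for paraxial mesoderm markers (2 of 2 higher). The endoderm and yolk sac marker Ttr was lower on every post-heartbeat array (-0.58), as were 6.91% of all genes. Proliferation markers had a median of -0.05 without the block (2 of 5 higher) and of 0.00022 with it. The part that changes in the mix of cells had in the differences of the actins, actinins and tropomyosins was not tested.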

How the data were processed

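Total RNA from the heart primordia was labeled with Cy3 and hybridized to 1-color Agilent rat arrays. The authors deposited scanner intensities for each spot, made with Feature Extraction 10.7.3.1 (background subtracted, not normalized between arrays), and a table of ratios shifted to the 75th percentile and divided by a baseline per probe, used here as an alternative. The 75th percentile of the intensity was between 1145.76 and 1701.98 per array, and between 39375 and 41327 of 58717 spots were well above background. The number of arrays limits the precision. Arrays correlated with r between 0.975 and 0.996.

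Spots marked as outliers were left out, log2 intensities less the 75th percentile of the array were averaged over the spots of a probe, and 19299 probes that stood well above background on every array of either group were tested with limma 3.58.1 in R 4.3.3 (Benjamini-Hochberg, threshold 0.05). The code was run on simulated arrays to see that planted changes were returned. Those arrays had independent noise for each probe and no slide effect, so the run does not bear on the calls made here. A gene was represented by its brightest tested probe. Ratios within an array were compared with exact two-sided permutation tests.

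Named were the 9 genes with all probes, all family relatives, Srf and Myocd, genes of the lists that passed with or without the slide block, and the 3 genes most correlated with each of Actc1, Acta1, Actn2 and Actn3. The members and lists were chosen with earlier results of these data known. Positions are from the array annotation (rn4), and promoters from RefSeq (GRCr8). Alternatives were another background correction, quantile normalization, another percentile, filters, the deposited ratios, marked spots kept, an intensity trend, the mean of a gene's probes, blocks for slide and replicate number, leaving out each array, and the test of the methods (Tukey's, with 1.5 fold).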

Additional observations from a re-analysis of the deposited data

How the results depend on the processing

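The log2 differences of Acta1, Actn2, Tpm1, Actc1, Actn3 and Tpm3 kept their sign under every alternative run. Those of the others did not: Actb ranged from -0.16 to 0.28 with an array left out (-0.16 without pre-heartbeat replicate 1, -0.0037 without post-heartbeat replicate 3), and with the slide as a block, leaving out arrays (chosen after seeing the data), Actb was at -0.027 without pre-heartbeat replicate 1, Actg1 at 0.060 and 0.15 without pre-heartbeat replicate 2 and post-heartbeat replicate 3, and Tpm2 at 0.069 without post-heartbeat replicate 3. Without a block 0 of the 9 genes were called, also when any array was left out. The count of genes called higher was 3 with the slide as a block (0 to 3 with arrays left out, and 0 to 1 lower) and 3 with the methods' selection by unadjusted p and 1.5 fold, which also called 1 lower and after Benjamini-Hochberg called 0. Deviations of pre- and post-heartbeat arrays with the same replicate number correlated at 0.648, -0.277 and 0.494 for numbers 1, 2 and 3. Arrays of numbers 1 and 3 shared a slide and those of number 2 did not. Over all combinations r was positive within a slide and negative across slides, so these values cannot tell whether replicate numbers pair the samples. The replicate block called 1 member higher (Acta1, limma's adjusted p = 0.0476) and 2 genes of the lists. Of all tested probes it called 95 higher and 49 lower, where the fit without it called 23 and 4, and that with the slide 223 and 89.

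Of the genes in the 6 lists, 1 was called higher without a block, 10 with the slide as a block, 0 with quantile normalization, and 0 with any array left out, where fewer arrays were fitted. List medians also moved, to 0.23 for Z-disc partners with normexp and to 0.29 for family paralogs without pre-heartbeat replicate 1. The shift of Actn2 relative to Actn3 was 1.25 with normexp. With the mean of a gene's probes, Tpm1 relative to Tpm2 shifted by 0.34, Tpm1 relative to Tpm3 by 0.59 and Tpm2 relative to Tpm3 by 0.25. The second probes differed by -0.24 in Tpm1, -0.01 in Tpm2 and -0.40 in Tpm3. With an array left out the shifts were between 1.55 and 2.12 for Actn2 less Actn3, 0.70 and 0.80 for Acta1 less Actc1, and 0.96 and 1.09 for Tpm1 less Tpm3. The median over all tested probes was between -0.05 and -0.02 under each scaling. The causes were not tested. Dim signals limit Actn3 most.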
